A study of Sus scrofa with 12 samples.

Results

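Translation initiation and elongation factors load ribosomes onto messenger RNA and move them along it. This account covers 51 genes for these factors, their inhibitors and the enzymes that modify them, of 23271 genes listed. A gene was taken when its symbol in the deposited table began with EIF1 to EIF6, EEF1 or EEF2. The eIF2 kinases (symbols starting EIF2AK), EIF1AY and EIF2S3Y were left out. RNA was taken from longissimus dorsi, a back muscle that runs along the spine, in 6 libraries from Laiwu pigs, a Chinese breed known for fat-rich muscle, and 6 from Yorkshire pigs, a lean Western breed. Pigs of both breeds had equal weight. No treatment, genotype, age or sex is given in the labels. The labels give the breed and a number for each library and do not say that each came from a separate animal, so the p-values rest on a spread among samples that may be technical.

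Initiation starts when eIF2, carrying GTP and the initiator tRNA, joins the small ribosomal subunit together with eIF1, eIF1A and the large scaffold eIF3. The cap-binding complex eIF4F, made of the cap-binding protein eIF4E, the scaffold eIF4G and the helicase eIF4A, brings the messenger RNA, and 4E-binding proteins block it by occupying eIF4E when mTORC1 signalling is low. In elongation eEF1A delivers each aminoacyl-tRNA, the eEF1B subunits recharge eEF1A with GTP, and eEF2 moves the ribosome by a codon. Skeletal muscle fibres are known to change after birth from eEF1A1 to its close relative eEF1A2.

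Totals ran from 54961358 to 67285809 counts per library, and the 51 genes held 1.69% to 2.19% of them. FPKM, the count per kilobase of gene scaled to the library's total, is the scale of every level below, and only on it are genes compared with each other. Of 8 muscle fibre markers, 7 had a row of their own, and their summed level was 53157 to 71958 FPKM in Laiwu and 55060.4 to 76757 FPKM in Yorkshire. The 4 lymphocyte markers summed to at most 0.689 FPKM, and each was at 0 in at least 1 library. The 6 adipocyte markers summed to 30.2 to 164 FPKM in Laiwu and 21.3 to 61.9 FPKM in Yorkshire. Yorkshire 5 stood apart by gene length. Its deviation from the Yorkshire mean had a Spearman's rho of -0.42 with gene length across the 11205 tested genes, where the other 11 libraries ran from -0.16 to 0.22. Where leaving it out moves a fold change or a ratio by over 1.5 times, the value without it is given too.

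Translation factor genes were spread over 4 orders of magnitude in this muscle, and EEF1A2 stood above every other member in every library. EEF1A2 had a mean of 2948 FPKM over the 12 libraries, followed by EIF1 at 777 FPKM and EEF2 at 734 FPKM. The ranges of EIF1 and EEF2 overlapped, so their order is within the spread. Next came EEF1A1 at 453, EIF4G2 at 418 and EIF4A2 at 371 FPKM, whose ranges also overlapped. EEF1B2 and EIF4B averaged 272 and 194 FPKM and did not overlap each other, while EIF3G at 117 FPKM and EEF1D at 116 FPKM did. The lowest of the 51 was EIF5A2, a relative of the hypusine-bearing factor EIF5A, at 0.217 FPKM or 35 to 126 counts per library. EIF5A2 lay under the minimum of 0.5 FPKM for testing, which left 50 members tested.

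**Figure D1:**
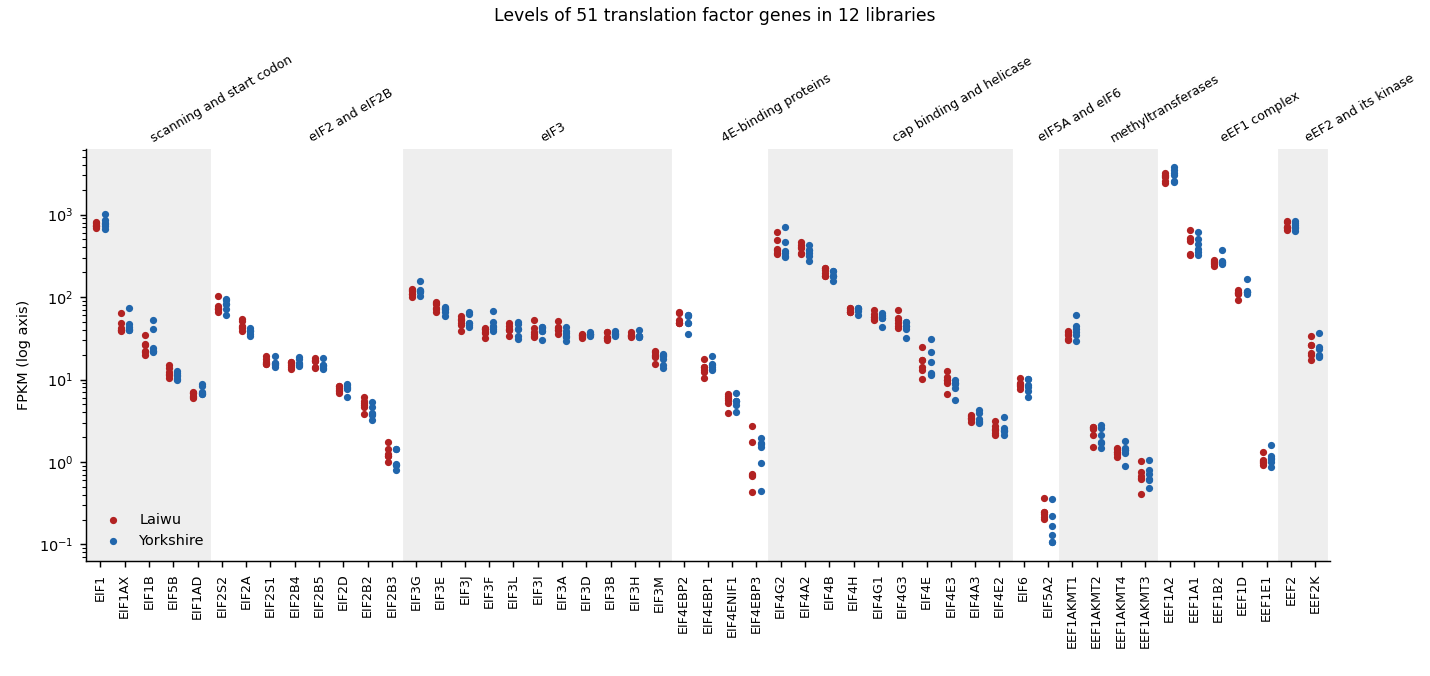
FPKM (log axis) of each of the 51 genes in the 6 Laiwu (red) and 6 Yorkshire (blue) libraries, each point a library, with genes grouped by role and ordered by mean within a group. EEF1A2 lies highest at a mean of 2948 FPKM, EIF5A2 lowest at 0.217 FPKM, and red and blue points overlap for every gene.

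The comparison of the breeds asks which of these genes differ between Laiwu and Yorkshire muscle. By the quasi-likelihood test of edgeR, adjusted by Benjamini-Hochberg over all tested genes, 0 of the 50 tested members passed an adjusted p under 0.05, where 0% of the 11205 tested genes passed. At an unadjusted p under 0.05 there were 3 members, or 6%, against 4.44% of all tested genes: EIF2A lay above 0 (1 of 50 members, against 2.14% of all tested genes), and EIF1AD and EIF3F lay below (2 of 50, against 2.3%). That count was 0 without Yorkshire 5, 0 without Laiwu 3 and 1 without Yorkshire 3. Over the 11205 tested genes it was 498 with all libraries, and 293, 284 and 535 in those 3 fits. DESeq2 also called 0 members, against 0.00892% of all tested genes. The 6 libraries of a breed lay wholly above or below those of the other for 0 members, against 0.178% of all tested genes. Fitted log2 fold changes, Laiwu minus Yorkshire, ran from -0.32 to 0.26, with 22 members above 0 and 28 below. Their median was -0.027, beside -0.0013 over all tested genes, of which 49.7% were above 0. Without Yorkshire 5 the median of the members was -0.0090, with 24 above 0. Without Yorkshire 3 it was 0.014, with 27 above 0, so its sign rests on single libraries.

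**Figure D2:**
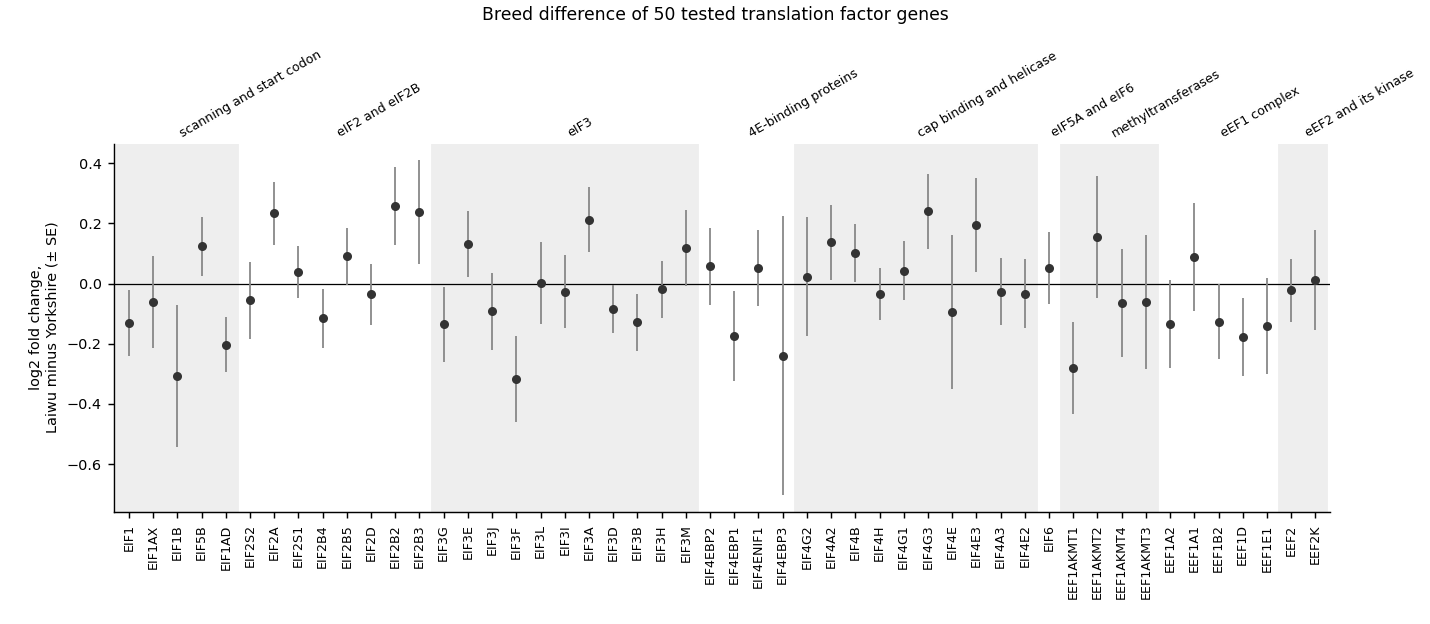
Fitted log2 fold change (Laiwu minus Yorkshire, edgeR) of the 50 tested genes by role, with bars of 1 SE. Values run from -0.32 for EIF3F to 0.26 for EIF2B2, and none passed the test after adjustment.

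Of the RNA for eEF1A, most was EEF1A2 in both breeds, and the ratio of EEF1A2 to EEF1A1 varied more between libraries of a breed than between the breeds. EEF1A2 (ENSSSCG00000040401; Sscrofa11.1 chromosome 17, 62517503 to 62526190) ran from 2431 to 3209 FPKM with a median of 2922 FPKM in Laiwu and from 2460.04 to 3726 FPKM with a median of 3082 FPKM in Yorkshire. Its highest library was Yorkshire 5 and its lowest Laiwu 3, and the breeds overlapped. EEF1A1 (ENSSSCG00000004489; chromosome 1, 92421806 to 92425044), the form made in most other cell types, ran from 320.2 to 649 FPKM with a median of 498 FPKM in Laiwu and from 328 to 612 FPKM with a median of 406 FPKM in Yorkshire. Laiwu 1 and Laiwu 2 were low at 320.2 and 334 FPKM, Laiwu 3 and Yorkshire 3 were the highest of their breeds, and the breeds overlapped across most of the range.

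Per library, EEF1A2 exceeded EEF1A1 by a factor of 3.74 in Laiwu 3 to 10.02 in Laiwu 1, with a Laiwu median of 6.01. In Yorkshire the factor ran from 4.92 in Yorkshire 3 to 10.5 in Yorkshire 6, with a median of 7.13. The mean log2 ratio of EEF1A1 to EEF1A2 was -2.63 ± 0.48 in Laiwu and -2.83 ± 0.35 in Yorkshire (SD, n = 6 each). The difference of 0.20 was smaller than either SD, with a two-sided exact permutation p of 0.437, or 0.676 after Benjamini-Hochberg adjustment over 5 paralog ratios. It ran from 0.053 to 0.34 with 1 library left out, and was lowest without Laiwu 3. By edgeR the log2 fold change was 0.089 ± 0.18 (SE) for EEF1A1 and -0.13 ± 0.15 for EEF1A2, with adjusted p values of 0.960 and 0.919. Without Laiwu 3 that of EEF1A1 was -0.013, and without Yorkshire 5 it was 0.16, while that of EEF1A2 was -0.051 without Yorkshire 5.

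Markers of other cells differed among the same libraries. The 6 fibro-adipogenic and fibroblast markers summed to 336 and 208 FPKM in Laiwu 1 and Laiwu 2, where EEF1A1 was low, and to 435 FPKM in Laiwu 3, where it was high. Their highest library was Laiwu 4, at 586 FPKM, with EEF1A1 at 512 FPKM. In Yorkshire 6, the lowest of Yorkshire for EEF1A1 at 328 FPKM, they summed to 281 FPKM. In Yorkshire these markers ran from 231 FPKM in Yorkshire 1, with EEF1A1 at 379 FPKM, to 406 FPKM in Yorkshire 3. The adipocyte markers were highest in Laiwu 3, at 164 FPKM, and the fibre markers were lowest there, at 53157 FPKM. In Yorkshire 6 the adipocyte markers were the highest of Yorkshire, at 61.9 FPKM. The fibre markers were highest of their breeds in Laiwu 4 and Yorkshire 5, at 71958 and 76757 FPKM, with EEF1A1 at 512 and 510 FPKM. The part of other cell types in the EEF1A1 level was not tested, and in bulk muscle more cells of a type cannot be told apart from more RNA per cell. Both genes are highly similar in sequence, and EEF1A1 is known for processed copies in mammalian genomes, so how reads were shared among them is uncertain.

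**Figure D3:**
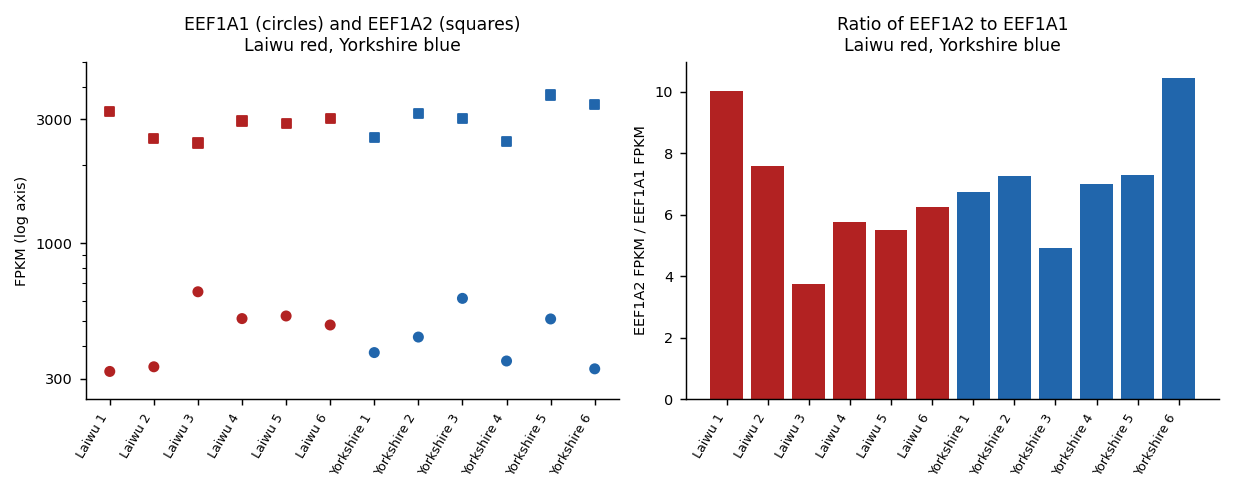
Left, FPKM (log axis) of EEF1A1 (circles) and EEF1A2 (squares) in each library. Right, the ratio of EEF1A2 to EEF1A1 in each library, from 3.74 in Laiwu 3 to 10.5 in Yorkshire 6, with the Laiwu (red) and Yorkshire (blue) bars overlapping.

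EEF2 was steady across the libraries, while EEF2K varied and the exchange subunits stood out in Yorkshire 5. EEF2 (ENSSSCG00000025675; chromosome 2, 74747080 to 74756680), the translocase, ran from 659 to 826 FPKM with a median of 706 FPKM in Laiwu and from 636 to 837 FPKM with a median of 734 FPKM in Yorkshire. The breed means were 734 ± 70.7 and 734 ± 72.4 FPKM (SD, n = 6 each), with a log2 fold change of -0.022 ± 0.11 (SE; edgeR adjusted p = 0.981), and ran from -0.072 to 0.019 with 1 library left out. EEF2K, the kinase that inactivates eEF2, ran from 17.1 to 34.0 FPKM with a median of 23.7 FPKM in Laiwu and from 19.0 to 36.9 FPKM with a median of 21.6 FPKM in Yorkshire. Its high libraries were Laiwu 5 and Yorkshire 3, at 34.0 and 36.9 FPKM. EEF1B2 and EEF1D, the nucleotide exchange subunits that recharge eEF1A, stood at 371 and 164 FPKM in Yorkshire 5, and their next highest Yorkshire values were 273 and 119 FPKM. In Laiwu they ran from 239 to 283 FPKM and from 93.03 to 122 FPKM. EEF1B2 overlaps NDUFS1 on the other strand over 163 bases, and no source used here says whether counting used strand. EEF1E1, which sits in the tRNA synthetase complex, was low at 1.05 ± 0.144 FPKM in the Laiwu libraries and 1.14 ± 0.246 FPKM in those of Yorkshire (SD, n = 6 each).

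Among the lysine methyltransferases of eEF1A, EEF1AKMT1 was the most abundant by an order of size. EEF1AKMT1 (chromosome 11, 1067061 to 1082591) ran from 30.5 to 38.4 FPKM with a median of 35.1 FPKM in Laiwu and from 29.6 to 60.6 FPKM with a median of 39.3 FPKM in Yorkshire. Yorkshire 5 was highest at 60.6 FPKM and Yorkshire 2 lowest of all at 29.6 FPKM, so the breeds overlapped. Its log2 fold change was -0.28 ± 0.15 (SE; edgeR adjusted p = 0.912), and -0.12 without Yorkshire 5. EEF1AKMT2, EEF1AKMT4 and EEF1AKMT3 averaged 2.21, 1.35 and 0.701 FPKM. EEF1AKMT3 overlaps its neighbour TSFM on the same strand over 42 bases.

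Scanning and start codon factors had 1 of 5 members above 0 and a median log2 fold change of -0.13, and 0 passed. EIF1, the guardian of start codon choice (chromosome 12, 20974503 to 20977075), ran from 689 to 804 FPKM with a median of 739.8 FPKM in Laiwu and from 666 to 1022 FPKM with a median of 776 FPKM in Yorkshire. Yorkshire 5 was the highest at 1022 FPKM, and the log2 fold change of -0.13 ± 0.11 (SE; edgeR adjusted p = 0.912) was -0.031 without it. EIF1B, a near copy of EIF1 whose division of reads with it is uncertain (chromosome 13, 24574910 to 24577616), ran from 19.7 to 34.3 FPKM with a median of 24.4 FPKM in Laiwu and from 21.5 to 53.2 FPKM with a median of 23.1 FPKM in Yorkshire. Yorkshire 5 and Yorkshire 3 were far above the other 4 Yorkshire libraries, at 53.2 and 41.3 FPKM, and in Laiwu the highest was Laiwu 5 at 34.3 FPKM. The log2 fold change of EIF1B was -0.31 ± 0.24 (SE; adjusted p = 0.912), or -0.045 without Yorkshire 5. EIF1 exceeded EIF1B by a median factor of 31.0 in Laiwu and 31.8 in Yorkshire, with the lowest factor, 19.2, in Yorkshire 5 (exact permutation p = 0.541, adjusted 0.676). The mean log2 ratio differed by 0.11, or 0.0057 without Yorkshire 5.

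EIF1AX, the X-linked gene of eIF1A, ran from 39.2 to 64.6 FPKM with a median of 41.0 FPKM in Laiwu and from 39.6 to 74.1 FPKM with a median of 42.4 FPKM in Yorkshire. Laiwu 5 and Yorkshire 3 were again the high libraries, at 64.6 and 74.1 FPKM, and the division of reads with its Y-linked copy is uncertain. EIF1AD (chromosome 2, 6334197 to 6340112) encodes a small protein with an eIF1A-like domain, and its level was 6.49 ± 0.422 FPKM in the Laiwu libraries and 7.38 ± 0.928 FPKM in those of Yorkshire (SD, n = 6 each). Its Yorkshire libraries ran from 6.61 to 8.81 FPKM, and the Laiwu range of 5.89 to 6.99 FPKM overlapped only their lower part. The log2 fold change was -0.20 ± 0.092 (SE; edgeR adjusted p = 0.912). A gene on the other strand that overlaps it over 643 bases averaged 133 FPKM, and without strand the reads of both cannot be told apart. EIF5B, the GTPase that joins the ribosomal subunits, ran from 9.96 to 14.9 FPKM over the 12 libraries.

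For eIF2, its exchange factor eIF2B and 2 further carriers of initiator tRNA, 5 of 8 members were above 0 and 0 passed, with a median log2 fold change of 0.065. EIF2S2, the beta subunit of eIF2 (chromosome 17, 37538321 to 37570224), ran from 65.9 to 104 FPKM with a median of 73.1 FPKM in Laiwu and from 60.0 to 93.6 FPKM with a median of 81.8 FPKM in Yorkshire. Laiwu 2 stood above the other Laiwu libraries, and the log2 fold change of -0.055 ± 0.13 (SE; edgeR adjusted p = 0.968) was -0.16 without it and -0.032 without Yorkshire 5. EIF2S2 overlaps RALY on the other strand over 4134 bases, and RALY averaged 37.7 FPKM. EIF2S1, the alpha subunit that carries the phosphorylation site of the stress kinases, was lower at 16.6 ± 1.42 FPKM in the Laiwu libraries and 16.0 ± 1.87 FPKM in those of Yorkshire (SD, n = 6 each).

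EIF2A, a tRNA carrier separate from the eIF2 complex (ENSSSCG00000011710; chromosome 13, 90761465 to 90804274), had the smallest p of the members. It ran from 39.0 to 54.1 FPKM with a median of 44.0 FPKM in Laiwu and from 33.5 to 41.7 FPKM with a median of 39.0 FPKM in Yorkshire. Laiwu 1 to Laiwu 4 were above every Yorkshire library, and Laiwu 5 and Laiwu 6 lay within the Yorkshire range. The means were 45.6 ± 5.77 FPKM in the Laiwu libraries and 38.2 ± 2.96 FPKM in those of Yorkshire (SD, n = 6 each), and the log2 fold change was 0.23 ± 0.11 (SE; edgeR adjusted p = 0.912). It ran from 0.18 without Laiwu 1 to 0.28 without Laiwu 5. Of the 4 eIF2B genes, which recharge eIF2 with GTP, EIF2B4 and EIF2B5 stood at 15.7 and 15.6 FPKM over the 12 libraries, while EIF2B2 and EIF2B3 stood at 4.57 and 1.19 FPKM. EIF2B5 encodes the catalytic epsilon subunit. EIF2D, the other tRNA carrier, ran from 6.17 to 8.72 FPKM.

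EIF2B2 (chromosome 7, 98203815 to 98211313) had the largest fitted difference above 0 among the members, at 0.26 ± 0.13 (SE; edgeR adjusted p = 0.912). It ran from 3.87 to 6.07 FPKM with a median of 5.00 FPKM in Laiwu and from 3.27 to 5.36 FPKM with a median of 3.87 FPKM in Yorkshire, and the breeds overlapped. For EIF2B3 (chromosome 6, 166353934 to 166487653) the fitted difference was 0.24 ± 0.17 (SE; edgeR adjusted p = 0.912), from 0.14 without Yorkshire 3 to 0.32 without Yorkshire 4. Its 2 highest Yorkshire libraries, Yorkshire 4 at 1.46 and Yorkshire 1 at 1.42 FPKM, each lay above at least 4 of the Laiwu libraries.

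The 11 named subunits of eIF3, the scaffold of the initiating ribosome, were within a narrow band except at its ends. Means over the 12 libraries ran from 34.4 FPKM for EIF3H to 73.4 FPKM for EIF3E, with EIF3M below at 18.5 FPKM and EIF3G above at 117 FPKM. Of the 11, 4 were above 0 and 7 below, 0 passed, and the median log2 fold change was -0.027. EIF3D, the subunit that can bind the cap itself (ENSSSCG00000000141; chromosome 5, 11213312 to 11229158), held the steadiest level of all members. It ran from 31.7 to 36.0 FPKM with a median of 34.2 FPKM in Laiwu and from 33.5 to 38.1 FPKM with a median of 35.5 FPKM in Yorkshire, and its coefficient of variation within breeds was 4.37%. Only 1 of the 11205 tested genes had a lower one. EIF3H, EIF4H and EIF3B followed among the members at 6.27%, 6.42% and 7.10%.

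EIF3F (ENSSSCG00000039647; chromosome 9, 1291661 to 1297972), a core subunit known as a target of the atrophy ligase atrogin-1 in muscle, had the fitted difference farthest below 0. It ran from 32.0 to 42.3 FPKM with a median of 39.4 FPKM in Laiwu and from 38.7 to 66.9 FPKM with a median of 43.7 FPKM in Yorkshire. Yorkshire 5 was far above the rest at 66.9 FPKM, and the other Yorkshire libraries lay between 38.7 and 50.4 FPKM. The log2 fold change was -0.32 ± 0.14 (SE; edgeR adjusted p = 0.912), and -0.17 without Yorkshire 5. EIF3G, an RNA-binding subunit (chromosome 2, 68966222 to 68970614), ran from 99.2 to 124 FPKM with a median of 113 FPKM in Laiwu and from 102 to 155 FPKM with a median of 118 FPKM in Yorkshire, again highest in Yorkshire 5. Its log2 fold change of -0.14 ± 0.12 (SE; adjusted p = 0.918) was -0.035 without Yorkshire 5. EIF3A, the largest subunit, was at 42.1 ± 5.24 FPKM in the Laiwu libraries and 35.8 ± 4.76 FPKM in those of Yorkshire (SD, n = 6 each), with Laiwu 3 highest at 51.1 FPKM and Yorkshire 5 lowest at 29.5 FPKM. Over the 12 libraries EIF3E ran from 59.2 to 86.6 FPKM, EIF3I from 30.1 to 53.0 FPKM, EIF3J, which is loosely bound to the complex, from 38.5 to 66.8 FPKM, and EIF3L from 31.2 to 50.3 FPKM.

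Cap binding and helicase genes split by level, with EIF4G2, EIF4A2 and EIF4B abundant and the cap-binding proteins themselves low. Of the 10, 6 were above 0 and 0 passed, with a median log2 fold change of 0.033. EIF4E, the cap-binding protein (ENSSSCG00000028420; chromosome 8, 121409731 to 121464471), ran from 10.1 to 24.5 FPKM with a median of 15.7 FPKM in Laiwu and from 11.3 to 30.6 FPKM with a median of 14.1 FPKM in Yorkshire. Yorkshire 3 at 30.6 FPKM and Laiwu 5 at 24.5 FPKM were the highest, Laiwu 6 the lowest, and the coefficient of variation within breeds was 38.8%. EIF4E3 and EIF4E2, relatives of which EIF4E2 is known as a cap-binding repressor, averaged 9.08 and 2.55 FPKM. EIF4E exceeded EIF4E2 by a median factor of 6.54 in Laiwu and 5.96 in Yorkshire (exact permutation p = 0.885, adjusted 0.885). The mean log2 ratio differed by -0.036, and by 0.066 without Yorkshire 5.

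EIF4G2 (DAP5), a scaffold that lacks the eIF4E site (ENSSSCG00000013405; chromosome 2, 48666520 to 48678721), ran from 335 to 613 FPKM with a median of 378 FPKM in Laiwu and from 305 to 699 FPKM with a median of 354 FPKM in Yorkshire. Laiwu 5 at 613 and Yorkshire 3 at 699 FPKM stood highest, as for EIF4E. Its log2 fold change of 0.023 ± 0.20 (SE; edgeR adjusted p = 0.992) was -0.11 without Laiwu 5, 0.18 without Yorkshire 3 and 0.078 without Yorkshire 5. EIF4G3, a scaffold that does bind eIF4E (chromosome 6, 79022138 to 79286261), ran from 42.3 to 69.4 FPKM with a median of 50.7 FPKM in Laiwu and from 32.0 to 50.1 FPKM with a median of 45.1 FPKM in Yorkshire. Laiwu 3 was highest and Yorkshire 5 lowest, and the other libraries overlapped. The log2 fold change was 0.24 ± 0.12 (SE; adjusted p = 0.912), 0.16 without Laiwu 3 and 0.18 without Yorkshire 5.

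The ratio of EIF4G1, the main eIF4F scaffold, to EIF4G3 had the smallest p of the 5 paralog ratios and did not pass after adjustment. EIF4G1 itself ran from 43.8 to 69.2 FPKM over the 12 libraries, lowest in Yorkshire 5. EIF4G1 over EIF4G3 ran from 0.997 in Laiwu 3 to 1.28 in Laiwu 6, with a median of 1.11, and from 1.18 in Yorkshire 3 to 1.42 in Yorkshire 1, with a median of 1.29. Laiwu 4 and Laiwu 6 lay within the Yorkshire range, and the other 4 Laiwu libraries below it. The mean log2 ratio differed by -0.19, from 0.18 ± 0.13 in Laiwu to 0.37 ± 0.11 in Yorkshire (SD, n = 6 each; two-sided exact permutation p = 0.0260, adjusted 0.130). With 1 library left out the difference ran from -0.22 to -0.15.

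EIF4A2, a helicase of eIF4F, was at 392 ± 49.4 FPKM in the Laiwu libraries and 351 ± 51.2 FPKM in those of Yorkshire, and EIF4B, which stimulates it, at 203 ± 19.2 FPKM in the Laiwu libraries and 186 ± 19.6 FPKM in those of Yorkshire (SD, n = 6 each). Small RNA genes lie within EIF4A2 on the same strand. EIF4H, another helper of the helicase, was at 68.8 ± 3.81 FPKM in the Laiwu libraries and 69.5 ± 4.99 FPKM in those of Yorkshire and varied little, from 60.2 to 73.4 FPKM. EIF4A3, a helicase of the exon junction complex rather than of eIF4F, averaged 3.44 FPKM.

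Among the 4E-binding proteins and the eIF4E transporter, EIF4EBP2 was the most abundant and EIF4EBP3 the most variable of all members. EIF4EBP2 (chromosome 14, 73323642 to 73349291) ran from 48.0 to 66.4 FPKM with a median of 50.8 FPKM in Laiwu and from 35.9 to 61.0 FPKM with a median of 53.7 FPKM in Yorkshire, and Yorkshire 5 was lowest. Its log2 fold change was 0.058 ± 0.13 (SE; edgeR adjusted p = 0.967), or -0.017 without Yorkshire 5. EIF4EBP1 ran from 10.5 to 17.7 FPKM with a median of 13.6 FPKM in Laiwu and from 13.2 to 19.5 FPKM with a median of 14.6 FPKM in Yorkshire, and Yorkshire 5 was highest. EIF4EBP2 exceeded EIF4EBP1 by a factor of 1.84 in Yorkshire 5 and of 3.20 to 5.42 in the other 11 libraries. The mean log2 ratio of EIF4EBP1 to EIF4EBP2 differed between the breeds by -0.23 (exact permutation p = 0.357, adjusted 0.676). Without Yorkshire 5 that difference was -0.056, and with each library left out in turn it ran from -0.31 to -0.056. EIF4EBP3 rested on 18 to 133 counts per library and ran from 0.428 to 2.74 FPKM with a median of 0.701 FPKM in Laiwu and from 0.439 to 1.96 FPKM with a median of 1.59 FPKM in Yorkshire. EIF4ENIF1, which carries eIF4E into the nucleus and to processing bodies, was at 5.63 ± 0.975 FPKM in the Laiwu libraries and 5.37 ± 0.935 FPKM in those of Yorkshire (SD, n = 6 each).

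EIF6, which keeps the large ribosomal subunit from joining too early (chromosome 17, 38638298 to 38643973), ran from 7.66 to 10.3 FPKM with a median of 8.69 FPKM in Laiwu and from 6.11 to 10.2 FPKM with a median of 8.34 FPKM in Yorkshire, with a log2 fold change of 0.052 ± 0.12 (SE; edgeR adjusted p = 0.968) that was 0.14 without Yorkshire 5 and -0.0090 without Yorkshire 2.

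Several differences among the libraries of a breed were noticed after the values were seen. Of the tested members, 9 were highest in both Laiwu 5 and Yorkshire 3 within their breeds: EEF2K, EIF1AD, EIF1AX, EIF3J, EIF4B, EIF4E, EIF4E2, EIF4ENIF1 and EIF4G2. That is 18% of the tested members, beside 13.4% of all tested genes, and nothing particular to these factors is read from it. EIF4E, EIF4G2 and EIF1AX lay 0.67, 0.57 and 0.52 on the log2 scale above the Laiwu mean in Laiwu 5, and 0.94, 0.82 and 0.68 above the Yorkshire mean in Yorkshire 3. Markers of macrophages summed to 29.7 FPKM in Yorkshire 3, the highest of Yorkshire, and to 13.3 FPKM in Laiwu 5, within the range of the other Laiwu libraries. The fibre markers summed to 55060.4 FPKM in Yorkshire 3, the lowest of Yorkshire, and to 56012 FPKM in Laiwu 5, above Laiwu 3 alone. Their part in the pattern was not tested. Laiwu 3 was highest of Laiwu for 20 members, or 40%, beside 23.8% of all tested genes. Yorkshire 2 was lowest of Yorkshire for 18 members, or 36%, beside 24.7%. Yorkshire 3 was highest of Yorkshire for 21, or 42%, beside 35.3%, and Yorkshire 5 for 16, or 32%, beside 18.3%.

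**Figure D4:**
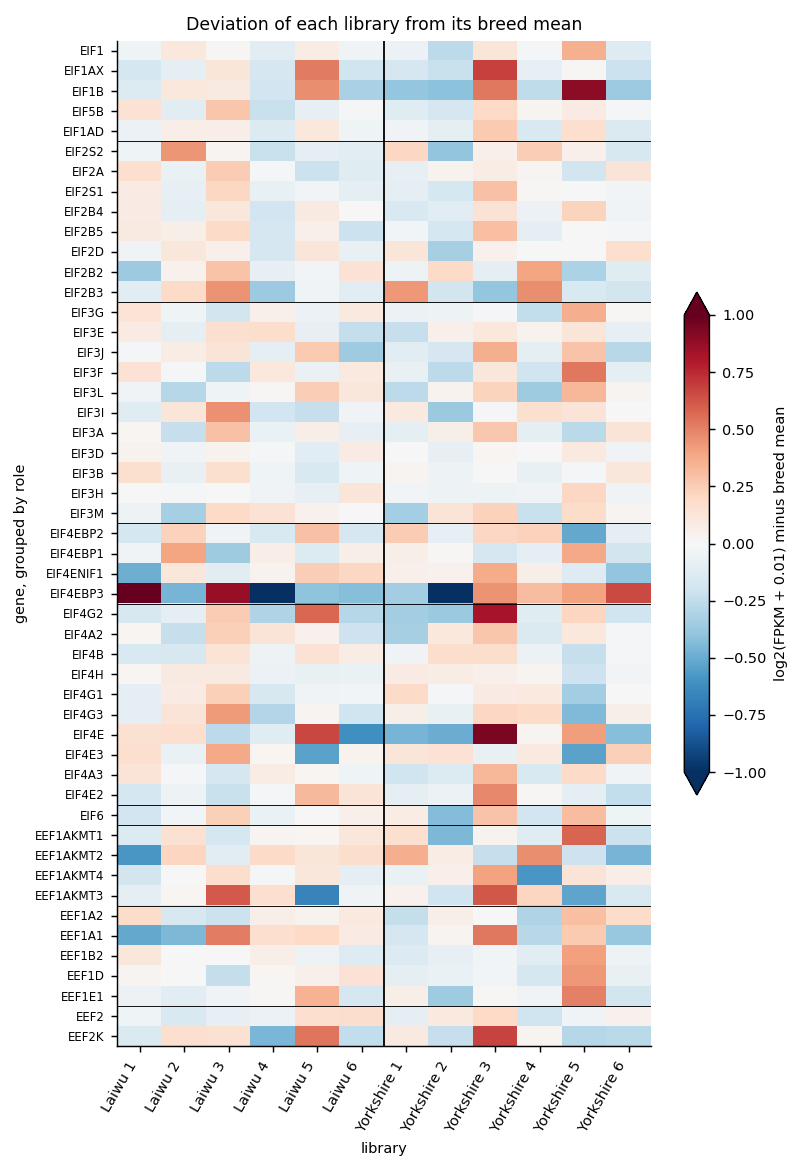
Deviation of each library from the mean of its breed in log2(FPKM + 0.01) for the 50 tested genes, grouped by role (red above, blue below, scale limited to 1 in either direction). EIF4E, EIF4G2, EIF1AX and EEF2K are red in Laiwu 5 and Yorkshire 3, and EIF1B, EEF1AKMT1 and EIF3F are red in Yorkshire 5.

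In Yorkshire 5 the deviations went with gene length. Across the 50 tested members its deviation from the Yorkshire mean had a Spearman's rho of -0.48 with gene length, beside -0.42 over all tested genes. For the members it was 0.13 in Yorkshire 3, and in the libraries other than Yorkshire 5 it ran from -0.21 in Laiwu 4 to 0.28 in Yorkshire 4. These correlations are across genes of 1 library, which are not independent, and are given as descriptions. The 16 members highest in Yorkshire 5 had a median length of 2.19 kb, and the 11 lowest there had one of 5.08 kb. EEF1AKMT1, EIF1B and EIF3F, the named genes farthest below 0, have lengths of 0.740, 1.01 and 1.19 kb. EIF4G3 and EIF4EBP2, both lowest in Yorkshire 5, have lengths of 6.65 and 7.22 kb. Not all members followed length. EIF3H at 7.72 kb, EIF5B at 7.90 kb and EEF1E1 at 5.12 kb lay 0.21, 0.084 and 0.50 above the Yorkshire mean on the log2 scale, and EEF1AKMT2 at 1.20 kb deviated by -0.20.

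**Figure D5:**
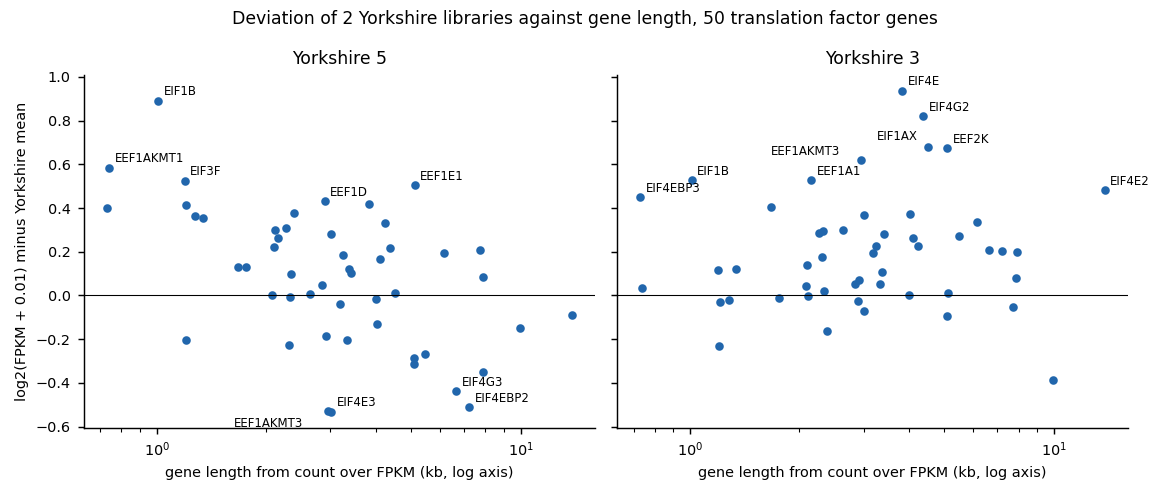
Deviation from the Yorkshire mean in log2(FPKM + 0.01) against gene length (kb, log axis) for the 50 tested genes, in Yorkshire 5 (left) and Yorkshire 3 (right). In Yorkshire 5 the short gene EIF1B lies above 0 and the long gene EIF4EBP2 below, while EIF3H and EEF1E1, also long, lie above, with a Spearman's rho over all 50 of -0.48, against 0.13 in Yorkshire 3.

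Within breeds the median coefficient of variation was 13.6% over the 36 members with a mean of at least 10 FPKM. It was 15.9% over all 2749 tested genes above the same minimum, which were not matched to the members in level. The least steady members above 10 FPKM were EIF4E, EIF1B, EIF4G2, EEF2K and EEF1A1, at 38.8%, 36.3%, 31.5%, 26.9% and 25.8%.

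Genes that act on these factors were taken from 5 lists, and edgeR called 0 of their 53 tested members. The eIF2 kinases and the integrated stress response that they start had 5 of 12 tested genes above 0, 7 below, 0 called, with fitted values centred on a median of -0.10. ATF4, the transcription factor made when eIF2 is phosphorylated, ran from 1316 to 2035 FPKM with a median of 1566 FPKM in Laiwu and from 1431 to 2517 FPKM with a median of 2164 FPKM in Yorkshire, and the breeds overlapped. Fitted log2 fold changes of the list ran from -1.76 to 0.22. The 3 of smallest p, named after their values were seen, all lay below 0: ATF4 at -0.31 ± 0.15, CHAC1 at -1.76 ± 0.82 and SESN2 at -0.65 ± 0.33 (SE; edgeR adjusted p = 0.912 for each). CHAC1, a glutathione-degrading enzyme known as a target of ATF4, was high in Yorkshire 1 and Yorkshire 4, at 4.94 and 3.54 FPKM, and at most 1.17 FPKM in the other 10 libraries. CHAC1 rested on 8 to 518 counts per library. SESN2, a sestrin that restrains mTORC1, was also highest in Yorkshire 1 and Yorkshire 4, at 2.63 and 2.15 FPKM. Other genes of the list differed in this. ATF3 was lowest of the 12 libraries in Yorkshire 1 and Yorkshire 4, at 6.85 and 8.21 FPKM. ASNS was the highest of Yorkshire there, at 59.3 and 64.1 FPKM, and highest of all in Laiwu 2, at 72.0 FPKM. ATF4 and DDIT3 were highest in Yorkshire 5. With 1 library left out ATF4 ran from -0.38 to -0.22, CHAC1 from -2.06 to -1.18 and SESN2 from -0.77 to -0.42, the last value of CHAC1 and of SESN2 being without Yorkshire 1. By limma on log2(FPKM + 1) CHAC1 was -0.67 and SESN2 -0.33. PPP1R15A, which directs the removal of that phosphate, ran from 9.32 to 39.5 FPKM with a median of 15.2 FPKM in Laiwu and from 10.6 to 52.5 FPKM with a median of 11.1 FPKM in Yorkshire. Within the breeds it was highest in Laiwu 5 and Yorkshire 3, as were EIF4E, EIF4G2 and 13.4% of all tested genes, and it was also high in Yorkshire 5, at 46.8 FPKM. Of the kinases themselves, EIF2AK1 had the highest level, at 6.57 ± 0.812 FPKM in the Laiwu libraries and 6.92 ± 0.794 FPKM in those of Yorkshire (SD, n = 6 each).

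The mTORC1 list, named for the kinase complex that makes the 4E-binding proteins release eIF4E, had 9 of 15 tested genes above 0, 6 below, 0 called, with fitted values centred on a median of 0.061. MTOR was at 7.94 ± 1.14 FPKM in the Laiwu libraries and 6.97 ± 1.39 FPKM in those of Yorkshire, and RPS6KB1, the S6 kinase that acts on EIF4B and EEF2K, at 9.15 ± 0.698 FPKM in the Laiwu libraries and 8.54 ± 1.03 FPKM in those of Yorkshire (SD, n = 6 each). MKNK2, a kinase of eIF4E, was at 63.0 ± 10.4 FPKM in the Laiwu libraries and 72.4 ± 13.3 FPKM in those of Yorkshire. Within the breeds it was highest in Laiwu 5 and Yorkshire 3. Genes of poly(A) binding, scanning, termination and recycling had 4 of 10 tested genes above 0, 6 below, 0 called, with fitted values centred on a median of -0.037. PABPC4 was at 103 ± 14.8 FPKM in the Laiwu libraries and 98.3 ± 10.04 FPKM in those of Yorkshire, and PABPC1, the better known poly(A)-binding protein that joins eIF4G, was lower at 50.0 ± 8.11 FPKM in the Laiwu libraries and 53.1 ± 15.5 FPKM in those of Yorkshire (SD, n = 6 each). Hypusine and diphthamide genes, which modify eIF5A and eEF2, had 2 of 7 tested genes above 0, 5 below, 0 called, with fitted values centred on a median of -0.11. Mitochondrial translation factors had 5 of 9 tested genes above 0, 4 below, 0 called, with fitted values centred on a median of 0.10, and TUFM, the mitochondrial counterpart of eEF1A, was the highest of them at 17.1 ± 1.78 FPKM in the Laiwu libraries and 17.8 ± 2.83 FPKM in those of Yorkshire (SD, n = 6 each).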

How the data were processed

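Per the labels' protocols, RNA with poly(A) tails was selected from frozen muscle. Sequencing was by Illumina NovaSeq, per the design text. Reads were filtered with FastQC 0.11.9 and aligned with HISAT2 2.2.1 to Sscrofa11.1, as the design text states. StringTie 1.3.4d, cutadapt 1.9, edgeR and DESeq2 stand in the submitters' processing notes with no role. Annotation, counter and strand setting: not given in the sources used here. The deposited table holds whole-number counts per gene and library. It also holds FPKM values computed by the authors, per the file headers. A gene's length was taken as its count over FPKM, per kilobase.

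Testing covered the 11205 genes whose mean FPKM reached 0.5, and 12066 were left out. edgeR 4.0.16 fitted the counts (TMM, robust quasi-likelihood test, Laiwu minus Yorkshire, no covariate, adjusted p under 0.05), and the script was tested on simulated data. Other tools were limma 3.58.1, DESeq2 1.42.0, R 4.3.3, Python 3.11.15, scipy 1.17.1 and matplotlib 3.10.9. Paralog ratios within a library were tested by exact permutation of the 924 assignments, where the smallest p is 0.00216. The pairs EIF4A1/EIF4A2 and EIF5A/EIF5A2 were left out because the first gene had no row under its symbol.

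Fold changes are given for EEF1A1, EEF1A2, EEF2, the highest member of each role, the 3 of smallest p and the 3 largest in each direction; levels may be given for any member. The members and lists were chosen with earlier results of these data known. Alternatives were other filters, scalings, tools and pseudocounts, a replicate block, and leaving out each library, and, added after the data were seen, Laiwu 5 and Yorkshire 3 together. List genes with no row under their symbol, such as MB and DPH7, were left out. The precision of low genes is set by their counts. The closest pair of libraries, Yorkshire 1 and Yorkshire 4, differed with a chi-square of 32.4 per degree of freedom, so no library was counted as a duplicate. The next closest pairs crossed the breeds, from 32.5 for Laiwu 2 with Yorkshire 4 to 78.6 for Laiwu 5 with Yorkshire 3. The closest pair within Laiwu, Laiwu 1 and Laiwu 4, stood at 97.9.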

Additional observations from a re-analysis of the deposited data

Results flagged for a closer look

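A library stood far from the other 5 of its breed in 14 of 112 groups of values, where chance gives about 1 in 20 groups. For FPKM alone it was 12% of the groups of the 50 tested members and 9.24% of those of all tested genes. In Yorkshire 3 these were EEF2K (36.9 FPKM, next 24.6), EIF1AX (74.1 FPKM, next 46.5), EIF2B5 (18.4 FPKM, next 15.0), EIF2S1 (19.5 FPKM, next 16.0) and EIF4E2 (3.54 FPKM, next 2.55), each the highest of Yorkshire. In Yorkshire 5 they were EEF1B2 (371 FPKM, next 273), EEF1D (164 FPKM, next 119), EIF3G (155 FPKM, next 121) and EIF3H (39.6 FPKM, next 33.6), also the highest of Yorkshire. The EIF4EBP1/EIF4EBP2 log2 ratio was highest there too, at -0.88, where the next Yorkshire value was -1.68. Yorkshire 2 was lowest for EIF3I (30.1 FPKM, next 38.7). In Laiwu, Laiwu 5 was highest for EEF1E1 (1.33 FPKM, next 1.05) and for EIF5A2 (0.368 FPKM, next 0.248), and Laiwu 2 for EIF2S2 (104 FPKM, next 78.4).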

How the results depend on the processing

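The count of 0 translation factors past the threshold held under all 20 alternatives, as did 0 of the list genes, and 0 of the 17 named genes passed under any. Over all genes DESeq2 called 1, CILP, and the others called 0. Over all tested genes the number at an unadjusted p under 0.05 was 498 of 11205 in the main fit. It was 1715 of 23271 with no filter, which added the low genes, and 284 to 656 of 11205 with 1 library left out. By limma it was 397 on log2(FPKM + 1) and 391 on log2(FPKM + 0.1), each of 11205. It was 444 of 11205 without both Laiwu 5 and Yorkshire 3, and 433 of 11205 with the replicate block. The number of members at an unadjusted p under 0.05, 3 as reported, was 1 by limma with either pseudocount, 1 with no filter, 1 without both Laiwu 5 and Yorkshire 3, 0 with the replicate block and 0 to 4 with 1 library left out. The number of members above 0, 22 as reported, was 19 to 27 with 1 library left out.

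Signs changed for 5 named genes, all with fitted values near 0. With 1 library left out, log2 fold changes ran from -0.013 to 0.17 for EEF1A1, -0.072 to 0.019 for EEF2, -0.017 to 0.10 for EIF4EBP2, -0.11 to 0.18 for EIF4G2 and -0.0090 to 0.14 for EIF6. EEF2 was 0.00059 by limma on log2(FPKM + 1) and 0.00059 on log2(FPKM + 0.1), and EIF4EBP2 was -0.0014 without both Laiwu 5 and Yorkshire 3. The difference in the EIF4E/EIF4E2 log2 ratio ran from -0.12 to 0.11 with 1 library left out. By medians it was 0.13, that of EIF4EBP1/EIF4EBP2 was 0.060 and that of EIF1/EIF1B was -0.038. The cause was not tested.

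The labels do not say whether libraries of equal number share more than that number. Their deviations from breed means correlated at -0.29 to 0.30 over the 6 pairs. Of the 6 Laiwu libraries, 0 were most like the Yorkshire library of their own number. Those they were most like correlated at 0.084 to 0.59, the highest being Laiwu 5 with Yorkshire 3. With the replicate block 0 genes were called. Counts of EIF4EBP3 and EIF5A2 limit what can be seen for those genes.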

Other observations

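Further factors, 4 in number, are listed in the deposited table under an identifier in place of a symbol and were named from the table's own description. EEF1G, the gamma subunit that completes the exchange complex of eEF1A, was at 282 ± 17.8 FPKM in the Laiwu libraries and 307 ± 33.3 FPKM in those of Yorkshire (SD, n = 6 each), close to EEF1B2 and highest in Yorkshire 5 at 368 FPKM. EIF4A1, the other helicase of eIF4F, was at 8.61 ± 1.47 FPKM in the Laiwu libraries and 10.6 ± 3.71 FPKM in those of Yorkshire, against 392 ± 49.4 FPKM in the Laiwu libraries and 351 ± 51.2 FPKM in those of Yorkshire for EIF4A2. Yorkshire 3 held the highest EIF4A1 value, 16.9 FPKM, and Yorkshire 1 the lowest, 6.38 FPKM. EIF3K, a small eIF3 subunit, was at 29.3 ± 2.42 FPKM in the Laiwu libraries and 33.5 ± 6.03 FPKM in those of Yorkshire, above EIF3M and below the other 10 subunits by its mean. EIF2B1, the alpha subunit of eIF2B, was at 8.48 ± 2.42 FPKM in the Laiwu libraries and 7.90 ± 1.76 FPKM in those of Yorkshire, between EIF2B2 and EIF2B5 in level. The breeds overlapped for all 4.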
